A study of Mus musculus and Homo sapiens with 14 samples.

Results

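The 10 macrophage genes Lyz2, Csf1r, Adgre1, Cd14, Mpeg1, C1qa, C1qb, C1qc, Vcam1 and Spic were followed in RNA sequencing libraries of mouse plasma cells sorted from spleen. They were picked by symbol, and all 10 were found among the 27179 entries of the mouse count table. The series compared cells with and without an intact Irf4 gene, which encodes a transcription factor needed to form plasma cells. Of its 14 libraries, the 4 of splenic plasma cells carry the comparison here: 2 are labelled Irf4 flox/- and 2 Irf4 flox/+. All mouse samples are labelled C57BL/6.

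Marrow of either genotype was given to congenically marked hosts together with uMT marrow, which cannot make B cells. Both genotypes received tamoxifen on days 1, 2, 7 and 8, and donor plasma cells were sorted from spleen on day 14. Both carry 1 floxed allele, and by their names they differ in the other allele before any treatment. The driver of Cre, the sort markers and any pooling of mice are not given in the sources used here. Macrophages can form from the hosts, the uMT marrow and the donor marrow of either genotype, and counts per gene do not tell these apart. The references, both wild type and with 1 library each, are plasma cells from bone marrow and follicular B cells from spleen. The mouse plasmacytoma line MPC-11, grown outside a spleen and carrying Cas9 and either an empty vector or a guide that targets Irf4, gave 4 further libraries. Its libraries are labelled Irf4 -/- or WT.

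Macrophages are phagocytes that engulf dying cells, microbes and, in the red pulp of the spleen, aged red blood cells, whose iron they recycle. They depend on signalling through the CSF1 receptor and on transcription factors of the ETS family, PU.1 in all macrophages and the related SPI-C in those of the red pulp. Plasma cells are not known for these genes. Lyz2 and Mpeg1 mark myeloid cells broadly, whereas C1qa, C1qb and C1qc, together with Vcam1 and Spic, are typical of resident macrophages.

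Upstream sequences are shown for 3 members because the data bear on genes that were high in the same library: C1qb and C1qc, neighbours on mouse chromosome 4, and Lyz2, the member with the largest genotype difference. Each is the 250 bases before the start listed for the gene in RefSeq's upstream table (build GRCm38.p6, the assembly that mm10 names), read 5′ to 3′ on the minus strand. They lie at chr4:136886201-136886450 for C1qb, chr4:136892915-136893164 for C1qc and chr10:117282273-117282522 for Lyz2. For C1qc the listed start lies inside the gene's full RefSeq extent, so the last 22 bases of the window overlap the gene, whose outer end is at 136892936. Capitals mark GAGGAA or its reverse complement TTCCTC, the letters known as the PU box.
C1qb: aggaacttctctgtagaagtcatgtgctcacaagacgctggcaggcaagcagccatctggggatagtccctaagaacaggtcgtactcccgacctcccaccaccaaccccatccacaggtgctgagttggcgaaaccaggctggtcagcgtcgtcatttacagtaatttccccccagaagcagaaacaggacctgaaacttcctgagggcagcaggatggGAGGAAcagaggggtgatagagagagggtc
C1qc: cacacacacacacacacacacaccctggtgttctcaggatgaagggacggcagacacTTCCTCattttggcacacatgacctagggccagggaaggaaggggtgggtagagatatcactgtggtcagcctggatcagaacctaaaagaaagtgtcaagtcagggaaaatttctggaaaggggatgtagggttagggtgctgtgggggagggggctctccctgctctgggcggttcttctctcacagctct
Lyz2: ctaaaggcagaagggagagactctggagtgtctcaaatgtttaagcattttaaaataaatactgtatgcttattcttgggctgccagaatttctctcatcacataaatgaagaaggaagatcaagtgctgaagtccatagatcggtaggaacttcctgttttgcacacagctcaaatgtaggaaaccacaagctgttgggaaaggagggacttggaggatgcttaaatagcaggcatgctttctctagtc

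The PU box letters begin 30 bases before the listed start of C1qb (position -30) and 193 bases before that of C1qc (position -193), and the Lyz2 window holds none. RefSeq's table matched 5 of the 10 members, and 2 of those 5 hold the letters on either strand. Of 32851 upstream windows of the same length, 23.3% hold them. A match describes the letters only, and no binding was measured.

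Library totals over all mouse libraries ran from 18738283 to 27003585 counts. Values are TMM-scaled CPM (counts relative to the size of the library, with a factor that corrects for differences in make-up between the 10 mouse libraries) unless a scale is named. The plasma cell label held in all 4 splenic libraries: Jchain, which joins antibody subunits, held 31868 and 29086 CPM in libraries 1 and 2 of flox/- and 69765 and 87916 CPM with flox/+, while follicular B cells held 26.0 CPM. The 2 flox/+ count columns carry the same name, so they are called a and b. Irf4 itself was measured at 133 and 159 CPM with flox/- and at 179 and 86.9 CPM with flox/+, a log2 difference of 0.13 ± 0.43 (SE of 2 libraries per genotype, edgeR adjusted p = 0.965), so the gene count did not separate the genotypes. Counts per gene do not show whether the floxed part was lost, and the genotypes rest on their labels.

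The 10 genes were not equally high in the 4 splenic libraries: 1 library held most of their counts. Summed over the members, flox/- library 1 held 7081 CPM, flox/- library 2 held 596 CPM, and flox/+ libraries a and b held 465 and 172 CPM. The sum in flox/- library 1 was therefore 11.9-fold that of the other library of its own genotype, whereas flox/- library 2 stood 1.28-fold above flox/+ library a and 3.46-fold above library b. As a share of all counts of a library, the members took 0.554% in flox/- library 1, 0.0552% in flox/- library 2, 0.0228% in flox/+ library a and 0.00747% in library b. Immunoglobulin genes took 56.3% and 52.8% of the counts in flox/- libraries 1 and 2, and 72.2% and 73.4% in flox/+ libraries a and b. Of the counts outside immunoglobulin genes, the members took 1.27%, 0.117%, 0.0821% and 0.0281% in the same order of libraries. In bulk RNA, a difference in the number of cells of a type and in RNA per cell cannot be told apart.

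Each of the 10 genes was highest in flox/- library 1 among the 6 primary cell libraries. All 10 stood over 4-fold above each of the other 3 splenic libraries there, which was so for 2.89% of the 11880 genes tested (343 genes). The fold of flox/- library 1 over library 2 ran from 5.96 for Csf1r to 25.1 for Lyz2 with a median of 10.2, where the median over all genes was 1.01. The scatter within a genotype was thus of the same order as the differences between genotypes.

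**Figure D1:**
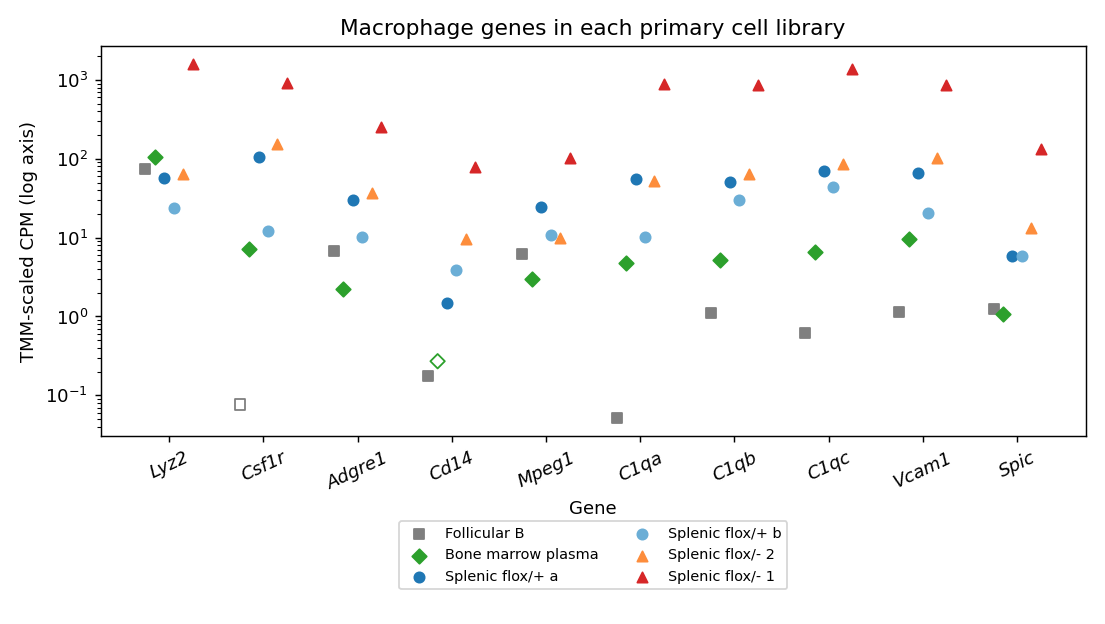
TMM-scaled CPM (log axis) of the 10 macrophage genes (x axis) in 6 primary cell libraries, 1 point per library; open points are libraries with 0 counts, drawn at the floor of 3 counts. Flox/- library 1 is the highest point for every gene, while flox/- library 2 ranges from 0.410-fold (Mpeg1) to 6.63-fold (Cd14) of flox/+ library a and from 0.911-fold (Mpeg1) to 12.9-fold (Csf1r) of library b.

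The complement genes C1qa, C1qb and C1qc encode the 3 chains of C1q, which binds antibody and dying cells and starts the classical complement cascade. C1qa stood at 892 CPM in flox/- library 1 and 52.7 CPM in library 2, and at 54.8 and 10.2 CPM in libraries a and b of flox/+. Its groups overlapped, since flox/- library 2 fell just under flox/+ library a. C1qb stood at 873 and 63.9 CPM in libraries 1 and 2 of flox/- versus 50.8 and 30.2 CPM in libraries a and b of flox/+. C1qc stood at 1365 and 86.9 CPM against 69.4 and 44.4 CPM. For both genes the flox/- libraries were above the flox/+ libraries, with only a narrow gap between flox/- library 2 and flox/+ library a.

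Lyz2, the lysozyme of myeloid cells, stood at 1609 and 64.1 CPM in libraries 1 and 2 of flox/- versus 56.9 and 24.1 CPM in libraries a and b of flox/+. Only flox/- library 1 was clearly apart. Mpeg1, a pore-forming protein of phagocytes, stood at 103 and 9.89 CPM against 24.1 and 10.8 CPM. Here flox/- library 2 was the lowest of the 4, so Mpeg1 was high in a single flox/- library.

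Among the surface receptors, Csf1r, which receives the growth signal macrophages need to survive, stood at 924 and 155 CPM in libraries 1 and 2 of flox/- versus 106 and 12.04 CPM in libraries a and b of flox/+. Its spread within flox/+, 8.80-fold between the libraries, was the widest of the members. Adgre1, which encodes the macrophage surface protein F4/80, stood at 252 and 36.8 CPM against 30.1 and 10.3 CPM. Cd14, a co-receptor for bacterial lipopolysaccharide, stood at 78.7 and 9.74 CPM against 1.47 and 3.93 CPM. In all 3 receptors both flox/- libraries were above both flox/+ libraries.

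Vcam1, an adhesion molecule of red pulp macrophages and also of stroma and endothelium, stood at 851 and 104 CPM in libraries 1 and 2 of flox/- versus 66.1 and 20.5 CPM in libraries a and b of flox/+. Spic, the transcription factor of red pulp macrophages, stood at 133 and 13.4 CPM against 5.78 and 5.81 CPM. The flox/+ libraries had nearly equal Spic levels, which no other member showed. Flox/+ library a was above library b for 8 of the 10 genes, Cd14 and Spic being the exceptions, where 48.9% of all genes were higher in a.

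The genotype comparison asks what loss of both Irf4 alleles, rather than 1, does in splenic plasma cells. With all 4 libraries, every member had a positive log2 fold change (flox/- over flox/+), from 1.69 for Mpeg1 to 4.37 for Lyz2, with a median of 3.59 against 0.09 over all genes tested, of which 54.6% were positive. Of the 10 members, 9 had a log2 fold change above 2, which held for 9.90% of all genes. None passed: edgeR called 0 of 10 members, and 0 of 11880 genes overall (0%), at an adjusted p under 0.05. At an unadjusted p under 0.05, 9 of the members were higher, against 8.40% of all genes, and DESeq2 called 7 of the members higher, against 3.63% of all genes. With limma on the deposited log2 FPKM values the count at an unadjusted p under 0.05 was 0 of 10 members (4.75% of all genes), and 5 of 10 with the replicate number as a block (5.80% of all genes). In 8 of 10 members the genotypes did not overlap and flox/- was higher, which was so for 25.6% of all genes. P-values measure only the spread between these samples, which nothing in the labels shows to be separate mice.

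The fold changes carried wide errors. The value for Lyz2 was 4.37 ± 1.48 (SE of 2 libraries per genotype), with an adjusted p of 0.330 in edgeR and 0.150 in DESeq2. For Cd14 it was 4.03 ± 1.14 (SE), with an adjusted p of 0.286 in edgeR and 0.00386 in DESeq2, the lowest adjusted p among the members in both tools. For C1qa it was 3.86 ± 1.47 (edgeR adjusted p = 0.386) and for Spic 3.66 ± 1.08 (edgeR adjusted p = 0.288). C1qc and C1qb had log2 fold changes of 3.67 ± 1.24 and 3.53 ± 1.19, Vcam1 of 3.46 ± 1.12, Csf1r of 3.19 ± 1.27 and Adgre1 of 2.84 ± 1.01. Mpeg1 had the smallest, 1.69 ± 1.07 (edgeR adjusted p = 0.665). DESeq2 did not call Lyz2, C1qa or Mpeg1.

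Leaving out flox/- library 1 took most of the difference away. The median of the members then stood at 0.78, with 9 genes above 0 and Mpeg1 below it at -0.82 ± 0.89 (SE). Cd14 kept the highest value, 1.85 ± 1.31, followed by Csf1r at 1.39 ± 0.99 and Vcam1 at 1.26 ± 0.71. Lyz2, the largest with all libraries, went to 0.66 ± 0.66, and C1qc to 0.61 ± 0.56. In that fit 0 of the 10 members had an unadjusted p under 0.05 (3.11% of all genes were higher at that p), with a single flox/- library assumed to vary like the flox/+ ones. Of the 10 members, 8 were still higher in flox/- library 2 than in both flox/+ libraries, against 37.6% of all genes. The count also moved with the other libraries: 10 members had an unadjusted p under 0.05 without flox/- library 2 (5.44% of all genes in that fit), 4 without flox/+ library a (14.5%) and 1 without flox/+ library b (7.52%). The last is near the share of all genes. Without flox/+ library a, the log2 fold changes of Csf1r and C1qa were 5.49 and 5.54.

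**Figure D2:**
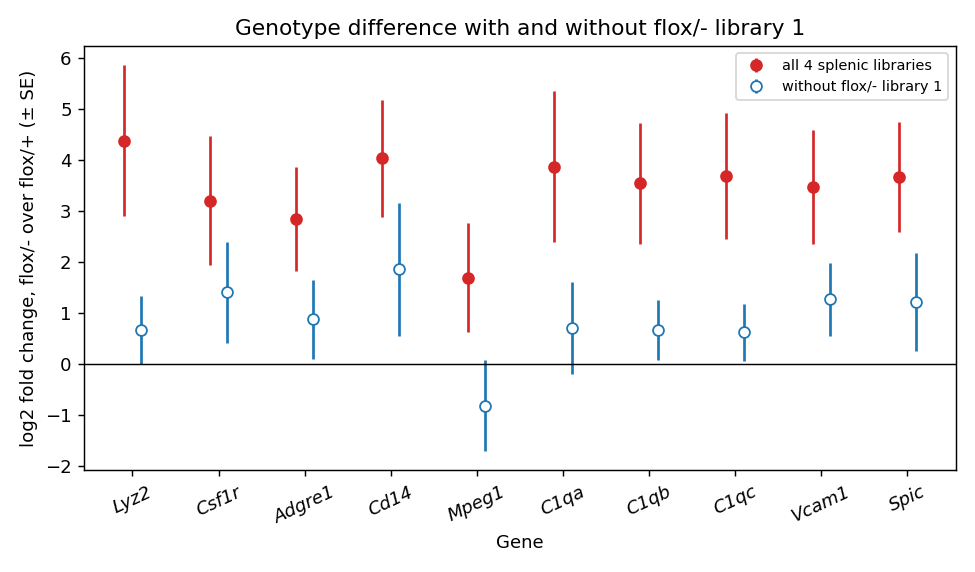
Log2 fold change of each gene, flox/- over flox/+ (y axis, bars are ± 1 SE from edgeR), with all 4 splenic libraries (filled) and without flox/- library 1 (open). Values run from 1.69 to 4.37 with all libraries and from -0.82 to 1.85 without that library.

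The make-up of the macrophage counts was compared within each library, where scaling between libraries has no part. The 3 C1q chains kept similar proportions in 3 of the 4 splenic libraries: C1qa took 28.5%, 25.9% and 31.3% of the C1q counts in flox/- library 1, flox/- library 2 and flox/+ library a. In flox/+ library b C1qa took 11.98% of 993 C1q counts, and C1qc took 52.4%, while C1qa took 29.1% in bone marrow plasma cells. Flox/+ library b thus departed from the other splenic libraries and from bone marrow plasma cells in the ratio of these neighbouring genes. Follicular B cells, with 69 C1q counts in all, departed further: C1qa took 2.90% and C1qb 62.3%.

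Other members did not keep a fixed ratio to C1q. For each C1q count there were 0.295 Csf1r counts in flox/- library 1, 0.762 in flox/- library 2, 0.606 in flox/+ library a and 0.142 in library b. Lyz2 per C1q count was 0.514 in flox/- library 1 and 0.315, 0.325 and 0.284 in flox/- library 2 and flox/+ libraries a and b. Vcam1 per C1q count was 0.272 and 0.510 in flox/- libraries 1 and 2 and 0.378 and 0.242 in libraries a and b of flox/+. Mpeg1 per C1q count was higher in both flox/+ libraries (0.138 and 0.128) than in the flox/- libraries (0.0328 and 0.0486). Relative to C1q, flox/- library 1 thus held more Lyz2 and less Adgre1 and Mpeg1 than the other splenic libraries, Adgre1 standing at 0.0804 per C1q count there against 0.121 to 0.181.

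**Figure D3:**
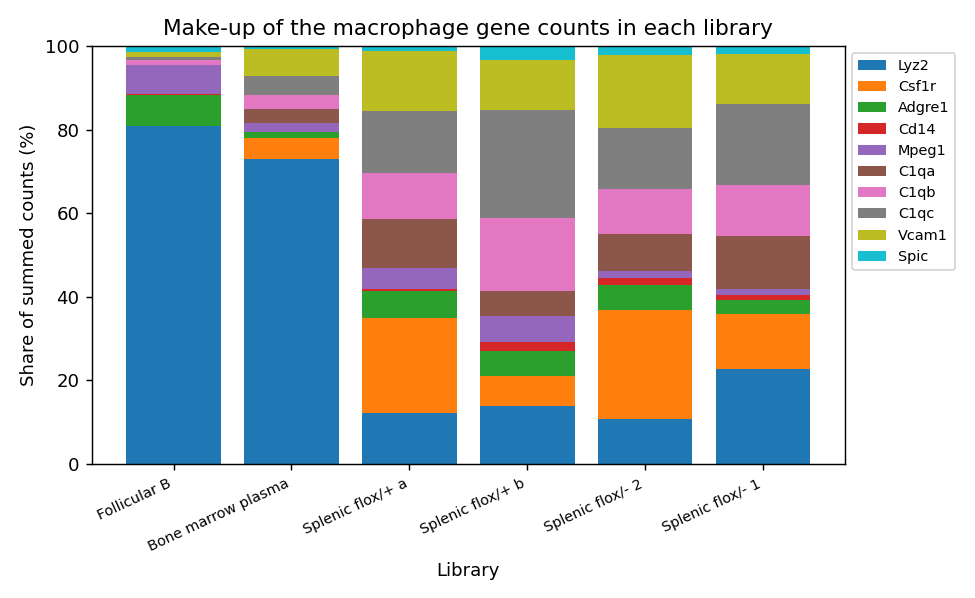
Share of the summed counts of the 10 macrophage genes taken by each gene (y axis, percent) in each of 6 primary cell libraries (x axis). Lyz2 takes 80.8% and 73.0% in follicular B cells and in plasma cells of the bone marrow and 10.7% to 22.7% in the 4 splenic plasma cell libraries.

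The reference libraries had another make-up. In follicular B cells the members summed to 90.7 CPM, of which Lyz2 made up 73.2 CPM, above its level in flox/- library 2 and in both flox/+ libraries. Csf1r had 0 counts there (under 0.0763 CPM at the floor of 3 counts), and C1qa had 2 counts, or 0.0509 CPM with an exact 95% Poisson interval of 0.00616 to 0.184 CPM. Such intervals and floors cover counting error only. Adgre1 and Mpeg1 stood at 6.84 and 6.28 CPM in follicular B cells. This library therefore held Lyz2 almost without Csf1r and C1qa.

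In bone marrow plasma cells the members summed to 146 CPM, with Lyz2 at 107 CPM, higher than in 3 of the 4 splenic libraries. The C1q chains stood at 4.78, 5.14 and 6.49 CPM for C1qa, C1qb and C1qc, Csf1r at 7.22 CPM, Vcam1 at 9.47 CPM, and Cd14 had 0 counts (under 0.271 CPM). The 9 members other than Lyz2 were lower there than in each splenic library. Lyz2 per C1q count was 6.49 in this library. Beside this, neutrophil markers summed to 810 CPM in bone marrow plasma cells against at most 2.39 CPM in the splenic libraries, where 4 of the 9 markers had no count. The highest of them were Ngp (178 CPM) and Mpo (168 CPM), granule proteins of neutrophils and their precursors, chosen here after their values were seen. The part of such cells in the Lyz2 level was not tested.

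In the MPC-11 line, 9 of the 10 members had 0 counts in all 4 libraries. Mpeg1 had 55 and 50 counts with the empty vector and 106 and 0 counts with the guide (1.98, 1.31, 3.05 and 0 CPM). The line, grown without other spleen cells, gave no counts of Lyz2, Csf1r, Adgre1, Cd14, C1qa, C1qb, C1qc, Vcam1 or Spic. These zeros describe the line only, since it also differed from the sorted plasma cells in other genes. With the empty vector the plasma cell marker Mzb1 stood at 1.41 and 0.473 CPM, against 1448 to 2889 CPM in the splenic libraries. Jchain still stood at 7661 and 5438 CPM in the line.

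In order of level, flox/- library 1 came first for all 10 genes. Directly below it came flox/- library 2 and flox/+ library a for 6 members (Csf1r, Adgre1, C1qa, C1qb, C1qc and Vcam1). They differed by at most 1.57-fold there, less than the spread between the libraries of either genotype, so for these 6 the order of the libraries directly beneath flox/- library 1 was not resolved. For Spic flox/- library 2 stood 2.32-fold and 2.30-fold above libraries a and b of flox/+, and for Cd14 6.63-fold and 2.48-fold, while for Mpeg1 it was below both. Follicular B cells or bone marrow plasma cells were lowest for every member except Lyz2.

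Levels were compared between genes on the deposited log2 FPKM scale, which divides by gene length. In flox/- library 1, Lyz2 (11.05) and C1qc (10.83) were the highest, followed by C1qa (10.29) and C1qb (10.28), and Mpeg1 (5.49) was the lowest. In flox/- library 2 the order began with C1qc (7.38), and Lyz2 (6.92) and C1qb (6.90) followed. On this scale, where the flox/+ files carry replicate numbers, C1qc stood at 7.04 and 6.40 in flox/+ libraries 1 and 2 and Lyz2 at 6.76 and 5.60. C1qc thus led in 3 of the 4 splenic libraries, and Lyz2 led only in flox/- library 1. Bone marrow plasma cells had Lyz2 at 7.54 and C1qc at 3.70.

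Other genes of red pulp macrophages had the same layout. Of the 13 further genes in that list, 13 were higher in flox/- library 1 than in library 2, against 50.8% of all genes. All 13 were over 4-fold above each other splenic library there, against 2.89% of all genes. In edgeR 0 passed in either direction, and DESeq2 called 8 higher, against 3.63% of all genes. The list, without members, summed to 6585 and 910 CPM in libraries 1 and 2 of flox/- versus 697 and 447 CPM in libraries a and b of flox/+. Slc40a1, the iron exporter ferroportin, stood at 1207 and 168 CPM against 133 and 74.0 CPM. Fcna, a lectin that triggers complement, stood at 1191 and 114 CPM against 79.9 and 43.2 CPM. Trf, the iron carrier transferrin, stood at 1232 and 172 CPM against 193 and 189 CPM, so that flox/- library 2 was below both flox/+ libraries.

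Among other macrophage markers of the spleen, 9 of 9 tested were higher in flox/- library 1 than in library 2 (50.8% of all genes). In edgeR 0 passed, and DESeq2 called 4 higher (3.63% of all genes). Their sums were 941 and 88.0 CPM in libraries 1 and 2 of flox/- versus 89.3 and 43.6 CPM. Mrc1, the mannose receptor, stood at 179 and 16.3 CPM against 12.8 and 3.76 CPM. Cd68, a lysosomal protein, held 328 and 35.3 CPM in the flox/- libraries and 49.7 and 30.0 CPM in the flox/+ libraries, and MPC-11 held more of it, 1140 and 1263 CPM with the empty vector.

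The partners of the members were listed by pathway, and no list was tested as a set. In edgeR 0 genes of these lists passed, as did 0 of all 11880 genes. Counts of positive log2 fold changes, here and in the lists below, are read against the 54.6% of all genes that were positive. Counts called by DESeq2 are read against the 3.63% of all genes it called higher and the 1.69% it called lower. In the CSF1 receptor and adaptor list, 7 of 7 tested genes had a positive log2 fold change (median 1.11; DESeq2 called 1). Tyrobp, the adaptor DAP12, stood at 397 and 28.9 CPM in libraries 1 and 2 of flox/- versus 28.1 and 7.94 CPM. Fcer1g stood at 570 and 154 CPM against 130 and 207 CPM, so its groups overlapped. Syk stood at 235 and 311 CPM against 181 and 89.1 CPM, and was lower in flox/- library 1 than in library 2. In the complement list, 8 of 8 had a positive log2 fold change and DESeq2 called 5. Cfp, the complement activator properdin, stood at 886 and 108 CPM against 105 and 44.3 CPM, and Cfb, factor B of the alternative pathway, at 184 and 14.2 CPM against 6.79 and 2.90 CPM.

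For the Toll-like receptor list, with the partners of Cd14, 6 of 10 had a positive log2 fold change (median 0.69, or 0.64 without Tlr8, which had no count in 1 genotype), a share near that of all genes. Unc93b1, which carries Toll-like receptors to endosomes, stood at 863 and 779 CPM in flox/- against 767 and 974 CPM in flox/+. Among engulfment genes, 7 of 8 were positive (median 3.04), and DESeq2 called 2. Axl, a receptor for dying cells, stood at 648 and 114 CPM against 45.2 and 45.6 CPM. Mfge8 stood at 40.3 and 30.5 CPM against 28.3 and 60.0 CPM, with a log2 fold change of -0.32. Among myeloid transcription factors, 7 of 8 were positive (median 1.33; DESeq2 called 2). Spi1, which encodes PU.1, stood at 134 and 62.5 CPM against 44.9 and 68.4 CPM, and follicular B cells held 136 CPM. Irf8 stood at 286 and 250 CPM against 95.1 and 112 CPM, even between the flox/- libraries, and at 635 CPM in follicular B cells. Cebpb stood at 138 and 108 CPM against 75.3 and 221 CPM, with a log2 fold change of -0.27.

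Lysosomal genes, which plasma cells also express, had a median log2 fold change of 0.48, and 10 of 14 were positive with 0 called by DESeq2. Ctsb, a lysosomal protease, stood at 5653 CPM in flox/- library 1 and at 1341, 1528 and 1937 CPM in flox/- library 2 and flox/+ libraries a and b. All 14 were higher in flox/- library 1 than in library 2. Iron and haem genes gave 11 of 12 positive and 2 called by DESeq2, and the ferritin chain Fth1 stood at 1793 and 610 CPM against 584 and 899 CPM.

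Markers of other cell types did not all follow the macrophage genes. The erythroid sum was 858 and 48.4 CPM in libraries 1 and 2 of flox/- versus 44.0 and 5.64 CPM in libraries a and b of flox/+. Follicular B cells held 318 CPM of erythroid markers, above flox/- library 2 and both flox/+ libraries, and bone marrow plasma cells held 7.76 CPM. All 6 tested were over 4-fold above each other splenic library in flox/- library 1, against 2.89% of all genes. Hba-a1, a haemoglobin chain, stood at 341 and 17.6 CPM against 15.0 and 1.28 CPM. T cell markers went the other way within flox/-, and 7 of 8 tested were higher in library 2. They summed to 167 and 438 CPM in libraries 1 and 2 against 14.8 and 27.6 CPM, while follicular B cells held 112 CPM. NK cell markers summed to 47.6 and 131 CPM against 13.6 and 21.9 CPM, all 3 tested being higher in library 2. Lck, a T cell kinase, stood at 75.3 and 221 CPM against 6.15 and 14.4 CPM.

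Thus, among the 4 splenic libraries, flox/- library 1 was highest in macrophage and erythroid markers and flox/- library 2 in T and NK cell markers. Flox/- library 2 also stood above both flox/+ libraries in the sums of the members and of the red pulp macrophage and erythroid markers, but not of the other splenic macrophage markers (88.0 CPM against 89.3 CPM in flox/+ library a). The monocyte sum (643 and 531 CPM against 1434 and 918 CPM) was carried by Ly6c2, which bone marrow plasma cells held at 1127 CPM. Of the 6 monocyte genes tested, 5 were positive. DESeq2 called 3 higher (3.63% of all genes were called higher) and 1 lower (1.69% of all genes were called lower). The 3 called higher had no count in 1 genotype. Cd300e and Fcgr4, with counts in both, were not called (DESeq2 adjusted p = 0.119 and 0.821). Dendritic cell markers summed to 74.1 and 41.3 CPM against 8.81 and 7.69 CPM, with 5 of 7 positive and 3 called by DESeq2. Ccr7, which made up most of that sum in flox/- library 2, stood at 17.6 and 32.3 CPM against 2.29 and 3.50 CPM. Follicular B cells held 276 CPM of Ccr7. Endothelial and stromal markers, listed because Vcam1 is also theirs, summed to 74.4 and 51.8 CPM against 54.2 and 36.4 CPM. Of the 10, 4 were at 0 in all 4 splenic libraries. Pecam1 made up most of each sum, at 64.3 and 45.7 CPM against 48.5 and 36.4 CPM, and follicular B cells held 137 CPM of it. Follicular B cell markers summed to 2286 and 3035 CPM against 2062 and 2676 CPM, sums that overlapped and in which Cd79a and Cd79b weighed most. Gene by gene, 9 of 10 had a positive log2 fold change (median 1.38). At an unadjusted p under 0.05 in edgeR 5 were higher (8.40% of all genes), and DESeq2 called 3 higher (3.63% of all genes). In 6 of them flox/- was higher without overlap (25.6% of all genes). Cd22, a B cell inhibitory receptor, stood at 136 and 240.4 CPM against 57.8 and 78.3 CPM. Plasma cell markers summed to 36875 and 34212 CPM against 79944 and 99599 CPM, with 9 of 11 log2 fold changes negative and 5 genes called lower by DESeq2. The part of any of these cells in the macrophage gene levels was not tested.

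**Figure D4:**
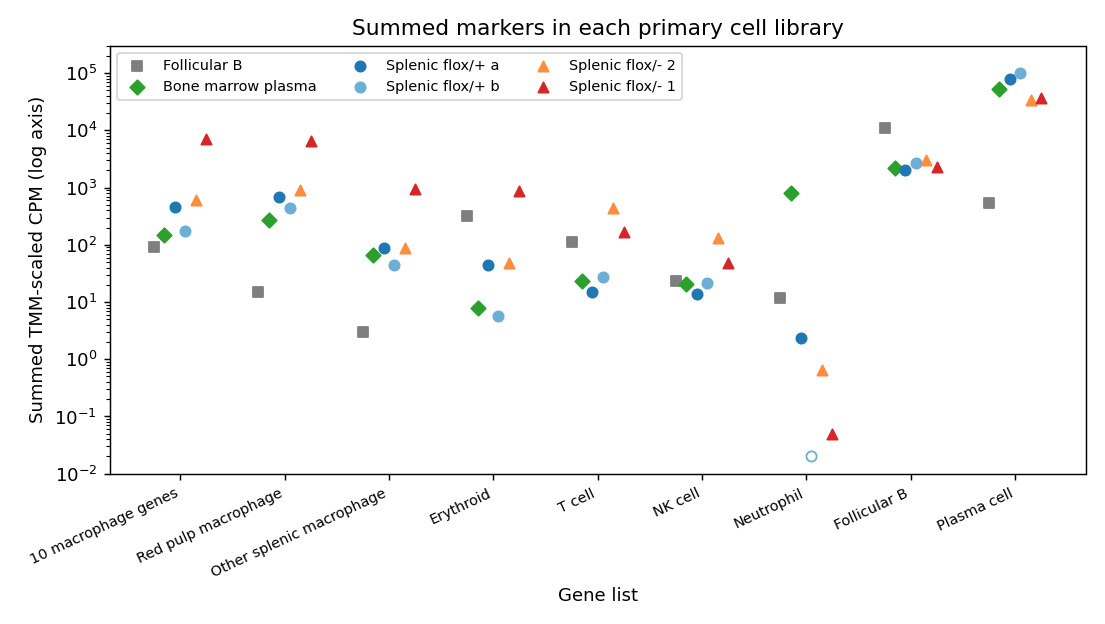
Summed TMM-scaled CPM (log axis) of each marker list (x axis) in 6 primary cell libraries, 1 point per library; the open point is a sum of 0, drawn at the foot of the axis. Flox/- library 1 leads in macrophage lists and in erythroid markers (858 CPM), flox/- library 2 in T cell markers (438 CPM), and bone marrow plasma cells in neutrophil markers (810 CPM).

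The genes most like the summed members over the 6 primary cell libraries were sought among 8821 genes by the Pearson correlation of log2(CPM + 1), given as a description of 6 libraries, 1 of which stands far from the rest. The closest were Ear2 (r = 0.998), Hpgd (0.994), Cfb (0.991), Cd300c2 (0.990), Zc3h11a (0.989), Pilrb1 (0.988), C6 (0.988), Tspan4 (0.988), Abcf1 (0.986) and P2ry13 (0.986). Of these, Hpgd, Cfb and C6 were in lists above. Ear2, a ribonuclease of the eosinophil family, stood at 35.5 and 4.74 CPM in libraries 1 and 2 of flox/- versus 3.03 and 1.02 CPM in libraries a and b of flox/+. Zc3h11a and Abcf1 followed the same order over a much smaller span, Abcf1 lying between 68.2 and 101 CPM in all 6 libraries. Among the members, r with their own sum ran from 0.825 for Lyz2 to 0.970 for Spic.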

How the data were processed

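Per the labels, total RNA was column-purified, mRNA reverse transcribed and libraries made with a transposase kit. Tools listed in the submitters' processing notes are limma, featureCounts and Subread 1.6.0, with the build mm10; annotation, strand setting and filters are not given in the sources used here. The authors deposited counts, whole reads per gene, and per-library log2 FPKM values whose offset is not described; 7 of the 10 mouse libraries share the same highest log2 value, so a normalisation between libraries may have been applied. Entries without a symbol (958, at most 0.306% of a library) were left out. Counts were fitted with edgeR 4.0.16 (R 4.3.3) on the 4 splenic libraries, with TMM factors from the 10 mouse libraries, filterByExpr (minimum count 10), quasi-likelihood tests and p-values adjusted by Benjamini-Hochberg over 11880 genes; the SE is the log2 fold change over the root of F. DESeq2 1.42.0 and limma 3.58.1 served as alternatives. In counts simulated with the spread that edgeR estimated, DESeq2 called unchanged genes at an adjusted p under 0.05 more often than edgeR (82 against 7 of the unchanged genes among 11880). How many changed genes each tool missed is not given here.

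Libraries of one genotype differed by far more than counting error (chi-square per degree of freedom 191 and 174), so none was counted as a duplicate. Members, lists and tests were chosen with earlier results of these data known. Named beside the members are the 3 genes of highest mean splenic CPM in a list (or some of them), Irf4, and the 10 genes most like the members; other names are marked as chosen after their values were seen. The human libraries were not used here. No protein sequences were used here.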

Additional observations from a re-analysis of the deposited data

How the results depend on the processing

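The count of genes called was 0 with edgeR, and again under 10 of the 12 alternatives, including limma on the log2 FPKM values, where 688 genes were higher and 1543 lower at an unadjusted p under 0.05; with the counts it was 998 and 445. DESeq2 called 632 genes. With all 10 mouse libraries in the fit, edgeR called 5, named here after their values were seen: Clstn1, Cyth3, Gpsm2, Tsc22d1 and Znfx1, none of them a member. Leaving out 1 library at a time gave 0 to 0 genes called.

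The median log2 fold change of the members was 3.59 and ran from 0.78 (without flox/- library 1) to 4.47 (without flox/- library 2) when 1 library was left out; it was 3.99 and 3.16 without flox/+ libraries a and b. Scaling to library size alone moved the median of all genes from 0.09 to 0.98 and that of the members to 4.36. For single members, 112 of 120 values kept their direction and side of the threshold over 12 alternatives, 7 passed in DESeq2, and Mpeg1 turned to -0.82 without flox/- library 1 (its range with 1 library left out was -0.82 to 2.55). DESeq2's adjusted p of 0.00386 for Cd14 is the lowest over its alternatives, which reach 1.00.

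The replicate numbers of the labels pair the splenic libraries only in the log2 FPKM files. The deviations of same-numbered libraries correlated at -0.0129 over 14704 genes. A value over all genes cannot show whether a pairing reaches some of them, and what the number stands for is not known here. With the replicate block limma called 0 genes (841 higher and 657 lower at an unadjusted p under 0.05) and the median of the members was 2.64, as without the block. The number of libraries limits these comparisons; depth limits members with few counts, such as Spic in flox/+ (63 and 68 counts, exact 95% Poisson intervals of 4.44 to 7.40 and 4.51 to 7.36 CPM) and Cd14 there (16 and 46 counts).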
